A study of Homo sapiens with 12 samples.

Results

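A list of 10 genes that the fetal liver, the hepatoblast and liver tumours of childhood express was followed across the arrays of this series: AFP, GPC3, DLK1, H19, PEG3, PEG10, SALL4, LIN28B, IGF2BP1 and DUSP9. All 13 probes annotated to these 10 genes were taken, of 20045 genes with a named probe on the array. HUH6 is a cell line from a human hepatoblastoma, an embryonal liver tumour. The cells were transfected at 0.1 uM with pooled siRNAs that target GATA4 or with a non-targeting (NT) control pool. GATA4 is a zinc finger factor that acts in the developing endoderm and heart. Transfection was stopped after 6 h, and total RNA was taken 72 h after it began. Each siRNA group has 6 arrays, numbered 1 to 6 in both, and no untransfected cells were part of the comparison. Whether each replicate was a culture of its own is not in the labels. The p-values therefore cover the spread between these 12 arrays and no more, and that spread may be technical.

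In the embryo the hepatoblast gives rise to hepatocytes and bile duct cells, and after birth many of its transcripts fall silent in the liver. Some of them return in liver tumours and are called oncofetal. AFP and GPC3 are secreted or cell surface products used as tumour markers, SALL4, LIN28B and IGF2BP1 are regulators of early development, and DLK1, H19, PEG3 and PEG10 are imprinted, that is, read from the copy of 1 parent.

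The raw signal is the linear brightness of a probe, with no background subtracted, and a probe was taken as detected where its detection p was under 0.01. Between 16067 and 16804 of 48106 probes were detected on the 12 arrays, and the number of arrays limits the precision. GATA4 itself was detected in 6 of 6 NT siRNA samples (137.1 to 168.8) and in 0 of 6 GATA4 siRNA samples (108.3 to 119.3). Against the lowest level that the GATA4 siRNA arrays detect, the NT siRNA mean of GATA4 was at least 1.19-fold higher (mean log2 signal 5.69 against a bound of 5.43). The measured GATA4 siRNA mean was 4.49, at background, so the probe entered the fit through the NT siRNA samples alone. The fitted change of GATA4, which is no bound, was tested against 0 (limma adjusted p = 2.6e-05). Of 15 hepatocyte markers, 14 were detected on all 12 arrays, among them ALB, TTR and APOA1, while KRT18 was detected on 1. KRT18 was not tested. Of the 14 others, the fit described below called 3 lower after GATA4 siRNA (ALB, FGG and FOXA2) and 0 higher. Over all genes tested the same fit called 3.77% lower and 2.65% higher. The arrays fall into a set of replicates 1 to 3 and a set of replicates 4 to 6 in both siRNA groups, which the first principal component (57.3% of the variance) separated. The labels name no batch, and the sets were first seen in these arrays.

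**Figure D1:**
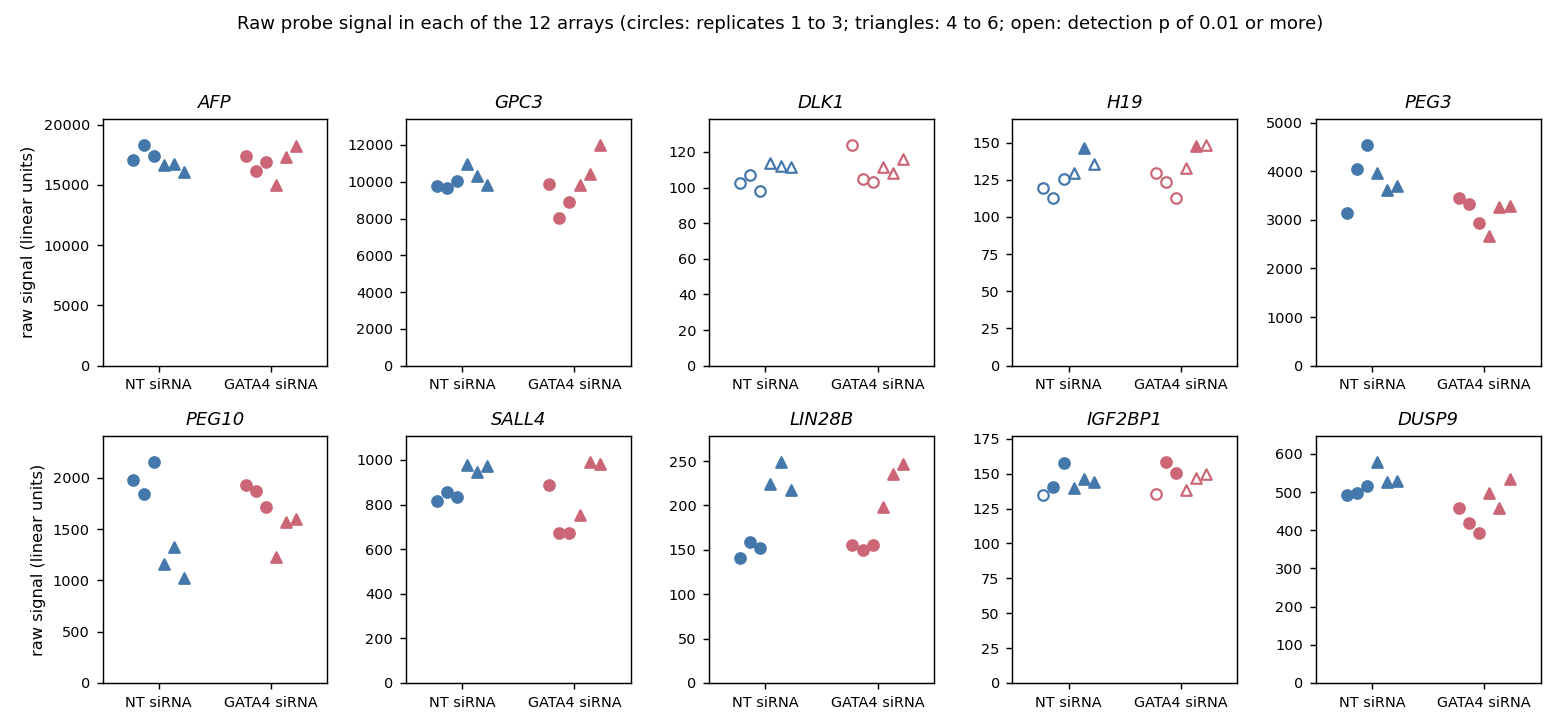
Raw signal (linear units, axis from 0) of the 10 genes in the 6 NT siRNA and 6 GATA4 siRNA arrays, at the probe that stands for each gene. Circles are replicates 1 to 3, triangles replicates 4 to 6, and open symbols were not detected. DLK1 was detected on 0 arrays and H19 on 2, while AFP lay between 15010 and 18287 on all 12.

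AFP, GPC3, PEG3, PEG10, SALL4, LIN28B and DUSP9 had a probe detected on all 12 arrays, IGF2BP1 on 7, H19 on 2 and DLK1 on 0. A gene was tested where a probe was detected on at least 6 arrays, which kept 8 of the 10 genes and 9 of the 13 probes. Signals of different probes were not set against each other, since probes differ in how brightly they bind.

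AFP, the alpha-fetoprotein of fetal plasma, gave 16071 to 18287 raw units (median 16909) with NT siRNA and 15010 to 18215 (median 17073) with GATA4 siRNA. The groups overlapped over most of their range. AFP was as bright as the brightest marker and reference probes, such as TF (13162 to 19591) and ACTB (15607 to 18981). Whether a signal this bright understates a change was not tested. On the log2 scale, after background correction and normalisation, NT siRNA samples averaged 14.04 ± 0.084 (SD, n = 6) and GATA4 siRNA samples 14.03 ± 0.12 (SD, n = 6). This scale adds an offset to each signal and so understates the change of dim genes. The change was -0.014 (SE 0.041, 95% interval -0.10 to 0.071, limma adjusted p = 0.90 with the replicate number as a block), with 3 of 6 pairs lower and 3 higher. A pair is the GATA4 siRNA and the NT siRNA sample of 1 replicate number. The labels do not say that samples of the same number were handled together. Once group and set means were removed, deviations of same-number samples correlated at -0.060 to 0.012 across genes. Within a set of replicates the choice of partner may therefore be arbitrary, and the pair counts and tests of pairs given here depend on it. The promoter of AFP, 250 bases before to 50 after the start in RefSeq on GRCh38.p14, is shown because AFP is the classical marker of this cell type. Capitals mark a TATAAA match that begins 29 bases before the start, on chromosome 4, plus strand, chr4:73435971-73436270.
AFP: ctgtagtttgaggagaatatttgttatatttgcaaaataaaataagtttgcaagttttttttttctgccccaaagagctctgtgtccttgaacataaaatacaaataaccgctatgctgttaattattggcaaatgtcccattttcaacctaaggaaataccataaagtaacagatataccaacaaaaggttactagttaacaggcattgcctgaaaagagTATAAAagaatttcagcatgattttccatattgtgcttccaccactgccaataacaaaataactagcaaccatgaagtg
TATAAA was found on either strand in 11.5% of 35116 promoters of this length. The AFP window holds 1 CG pair of bases, where the median promoter holds 14. The hexamers with a GATA core were searched on both strands: AGATAA or AGATAG, and likewise TGATAA or TGATAG. The AFP window holds none of them.

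GPC3, a heparan sulfate proteoglycan anchored to the cell surface, gave 9673 to 10939 raw units (median 9919) with NT siRNA and 8050 to 11988 (median 9862) with GATA4 siRNA. In raw units the GATA4 siRNA samples spread to both sides of the NT siRNA samples. After normalisation they reached only below them, at 13.06 to 13.29 against 13.26 to 13.43 in log2 signal. After normalisation its change was -0.11 on the log2 scale (SE 0.042, 95% interval -0.19 to -0.018), lower in 5 of 6 pairs, and did not pass the threshold (limma adjusted p = 0.15). Its neighbour and paralog GPC4, chosen for this paragraph after the values were seen, was at 0.12 (SE 0.099, adjusted p = 0.56). Of the 6 glypicans tested, 0 passed in either direction, where 6.41% of all genes did, and GPC5 had the lowest p (-0.15, adjusted p = 0.12).

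The 4 imprinted genes fell into a detected pair, PEG3 and PEG10, and a pair at or near background. DLK1, a membrane protein of the Notch ligand type that marks hepatoblasts in the fetal liver, is a gene this label would lead a reader to look for. Its brighter probe read 98.2 to 113.8 raw units with NT siRNA and 103.0 to 123.8 with GATA4 siRNA, and its other probe 95.2 to 106.8 and 100.1 to 114.7. Neither was detected on any of the 12 arrays, with detection p-values from 0.138 to 0.997. H19, a noncoding RNA next to IGF2, read 119.3, 113.0, 125.2, 129.4, 146.2 and 135.6 raw units in NT siRNA replicates 1 to 6. With GATA4 siRNA it read 129.3, 123.4, 112.6, 132.6, 147.7 and 148.2. It was detected in replicate 5 of each group, and its 6 arrays of replicates 4 to 6 (129.4 to 148.2) lay just above the 6 arrays of replicates 1 to 3 (112.6 to 129.3). Its detection p was 0.0052 to 0.030 in replicates 4 to 6 and 0.049 to 0.44 in replicates 1 to 3. With 10 of 12 arrays not under the detection cut of 0.01, no fold is given for H19. The imprinted neighbours of both genes, chosen for their position after the values were seen, were also dim. The 3 probes of IGF2 were detected on 5, 2 and 0 arrays (99.3 to 157.1 raw units over all of them), and the 2 probes of MEG3, next to DLK1, on 0.

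PEG3, a zinc finger protein read from the paternal copy, fell after GATA4 siRNA. Its raw signal was 3148, 4046, 4535, 3972, 3613 and 3698 in NT siRNA replicates 1 to 6. In GATA4 siRNA replicates 1 to 6 it was 3446, 3319, 2939, 2661, 3258 and 3290. The 5 brightest values were all NT siRNA samples, and the groups overlapped through NT siRNA replicate 1 alone. NT siRNA samples averaged 11.88 ± 0.19 (SD, n = 6) in log2 signal and GATA4 siRNA samples 11.55 ± 0.11 (SD, n = 6), a change of -0.33 (SE 0.060, limma adjusted p = 0.0012). PEG3 was therefore 1.26-fold lower (95% interval 1.16 to 1.37), and lower in 5 of 6 pairs, with 0.047 in pair 1 and -0.22 to -0.59 in the others. In bulk RNA, fewer cells that express a gene and less RNA per cell cannot be told apart. An exact two-sided sign-flip permutation test of the 6 pairs gave p = 0.0625. The smallest p that test can give is 0.03125. ZIM2, an imprinted neighbour of PEG3 chosen after the values were seen, was detected on 0 arrays (118.0 to 133.2 raw units).

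DUSP9, a phosphatase that switches off MAP kinases of the ERK type, fell as well. It read 492.4, 497.1, 514.8, 577.8, 526.7 and 529.9 raw units in NT siRNA replicates 1 to 6, and 457.4, 418.8, 391.6, 498.2, 459.3 and 533.4 after GATA4 siRNA. Each GATA4 siRNA sample but number 6 was dimmer than its NT siRNA partner in raw units, and after normalisation all 6 were. In log2 signal the NT siRNA mean was 8.77 ± 0.13 (SD, n = 6) and the GATA4 siRNA mean 8.45 ± 0.20 (SD, n = 6), a change of -0.31 (SE 0.057, limma adjusted p = 0.0013). This is 1.24-fold lower (95% interval 1.14 to 1.35). The exact two-sided sign-flip permutation p of 0.03125 is the smallest 6 pairs allow. Pairs ranged from -0.17 to -0.40. DUSP9 was the 1 gene of the 8 that was lower in 6 of 6 pairs, and 6.12% of all genes tested were. Of the 7 tested DUSP phosphatases of MAP kinases, DUSP9 was the 1 called, where 6.41% of all genes were. The list had a median change of 0.016 against 0.0020 over all genes tested. The promoter at the upstream of 2 RefSeq starts is shown because DUSP9 is the 1 called gene of the 10 with an entry in the promoter table. It lies on chromosome X, plus strand, chrX:153642191-153642490 of GRCh38.p14. Capitals would mark the GATA hexamers listed above or TATAAA.
DUSP9: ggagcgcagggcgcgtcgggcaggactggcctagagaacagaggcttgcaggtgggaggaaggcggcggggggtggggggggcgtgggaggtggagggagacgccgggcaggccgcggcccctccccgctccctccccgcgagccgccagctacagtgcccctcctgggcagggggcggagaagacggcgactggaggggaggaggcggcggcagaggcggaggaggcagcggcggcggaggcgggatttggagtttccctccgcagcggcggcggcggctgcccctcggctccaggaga
The window holds 31 CG pairs and none of these motifs on either strand, and the window at the other start holds 29 CG pairs and none. At least 1 of the hexamers stood in 25.0% of 35116 promoters of the same length. A match or its lack in these letters is a description of this window only.

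SALL4, a zinc finger factor of embryonic stem cells and fetal liver, was lower by a smaller step. Its raw signal was 814.4, 857.4, 834.1, 977.6, 944.4 and 973.1 with NT siRNA and 887.9, 671.1, 674.4, 752.8, 989.1 and 983.8 with GATA4 siRNA, in replicates 1 to 6. The groups overlapped, in raw units and after normalisation. Mean log2 signals were 9.67 ± 0.17 (SD, n = 6) and 9.46 ± 0.23 (SD, n = 6), a change of -0.21 (SE 0.061, limma adjusted p = 0.039), 1.16-fold lower (95% interval 1.06 to 1.26). It was lower in 4 pairs, equal in pair 5 and 0.041 higher in pair 1 (exact sign-flip permutation p = 0.125). The call ended on leaving out replicate 2, 3, 4 or 6 from both groups (adjusted p = 0.080 to 0.147). Its paralogs SALL1 (-0.22, adjusted p = 0.22) and SALL2 (-0.12, adjusted p = 0.47), chosen after the values were seen, did not pass.

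Of the 8 tested genes, 3 were therefore lower (PEG3, DUSP9 and SALL4), 0 were higher and 5 did not pass. Over all 10196 genes tested the same fit called 3.77% lower and 2.65% higher, 6.41% in all. The 8 genes had a median change of -0.11 against 0.0020 over all genes. The list was chosen with earlier results of these data known, so these counts and medians describe it and do not test it. Without the replicate block 0 of the 8 passed, with adjusted p of 0.096 for PEG3, 0.20 for DUSP9 and 0.56 for SALL4, and 0.706% of all genes did. With the 2 sets of replicates as the block in place of the pairs, all 3 passed again (adjusted p = 0.00084, 0.0023 and 0.027). Within replicates 1 to 3 alone 0 of the 8 passed as lower, where 0.834% of all genes did. Within replicates 4 to 6 alone PEG3 (-0.39, adjusted p = 0.00074) and DUSP9 (-0.28, adjusted p = 0.037) did, where 3.24% of all genes did.

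**Figure D2:**
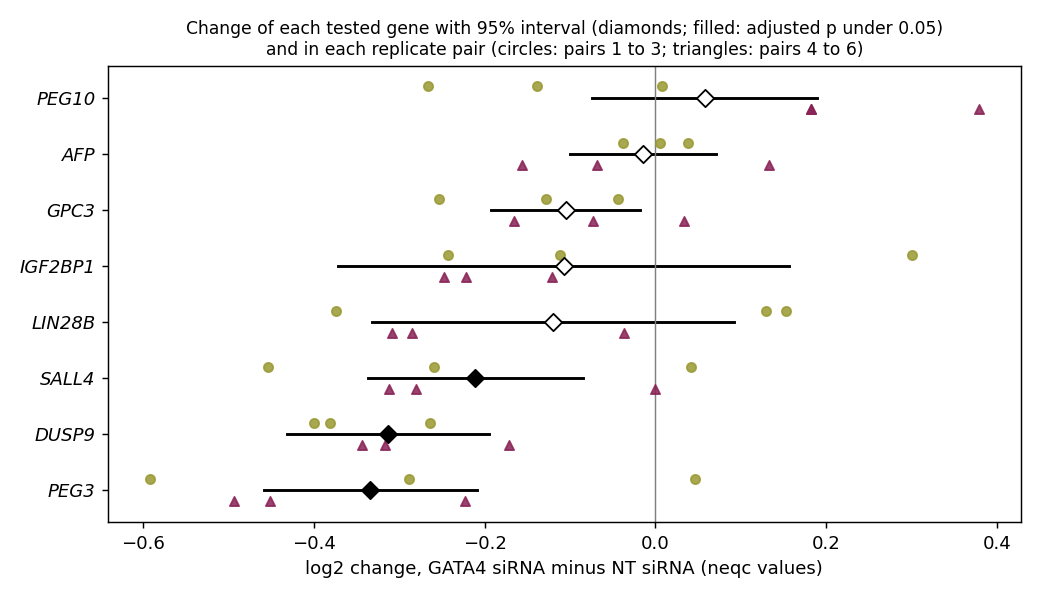
Log2 change after GATA4 siRNA of the 8 tested genes. Diamonds are limma estimates with 95% intervals (filled where the adjusted p is under 0.05), circles are pairs 1 to 3 and triangles pairs 4 to 6. PEG3 (-0.33), DUSP9 (-0.31) and SALL4 (-0.21) are the filled ones, and all 6 pairs of DUSP9 lie below 0.

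LIN28B, which blocks the maturation of let-7 microRNAs, was dim and differed between the sets of replicates more than any other of the 8. It read 140.6, 158.4 and 152.0 raw units in NT siRNA replicates 1 to 3 and 223.9, 248.5 and 217.9 in replicates 4 to 6. After GATA4 siRNA it read 155.1, 150.3 and 155.0, then 197.9, 235.1 and 246.9. The sets did not overlap in either siRNA group, and in raw units the siRNA groups overlapped within both sets. After normalisation they overlapped within replicates 1 to 3 but not within replicates 4 to 6, where LIN28B was 7.01 to 7.26 with NT siRNA and 6.79 to 6.98 with GATA4 siRNA (-0.21, limma adjusted p = 0.34). The mean log2 signal was 5.79 in replicates 1 to 3 and 7.02 in replicates 4 to 6, a difference of 1.23 (SE 0.098), or 2.35-fold. The difference was 1.32 with NT siRNA and 1.14 with GATA4 siRNA. A larger difference between the sets was seen in 0.736% of the 10196 genes tested, and 1.57% differed at least 2-fold. On the authors' normalised values, from which no background was taken, the difference was 0.57, and with an offset of 50 in place of 16 it was 0.88. The change after GATA4 siRNA was -0.12 (SE 0.10, 95% interval -0.33 to 0.092, adjusted p = 0.57).

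Both RefSeq starts of LIN28B are shown because they differ in composition and in motif matches. The probe is not assigned to either start in the files. Both windows lie on chromosome 6, plus strand, of GRCh38.p14, the upstream one at chr6:104940715-104941014 and the downstream one at chr6:104956857-104957156. Capitals mark the GATA hexamer AGATAA, read on the plus strand and, as its reverse complement, on the minus strand.
LIN28B upstream start: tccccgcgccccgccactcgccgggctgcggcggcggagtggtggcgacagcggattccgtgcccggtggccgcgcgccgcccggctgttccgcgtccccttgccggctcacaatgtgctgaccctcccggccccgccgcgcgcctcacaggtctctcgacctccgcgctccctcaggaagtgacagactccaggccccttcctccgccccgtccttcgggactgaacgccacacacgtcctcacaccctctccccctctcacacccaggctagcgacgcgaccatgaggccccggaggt
LIN28B downstream start: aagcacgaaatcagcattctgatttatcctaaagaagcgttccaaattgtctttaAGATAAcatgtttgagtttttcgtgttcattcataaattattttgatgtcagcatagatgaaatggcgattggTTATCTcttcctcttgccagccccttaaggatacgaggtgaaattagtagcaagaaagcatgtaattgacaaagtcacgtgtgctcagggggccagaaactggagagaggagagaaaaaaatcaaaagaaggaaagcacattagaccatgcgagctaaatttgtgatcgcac
The upstream window holds 37 CG pairs and no such hexamer. The downstream window holds 8 CG pairs and 2 matches, which begin 195 and 122 bases before the start. Of the 6 windows of 4 of these genes in the table (AFP, H19, LIN28B and DUSP9), it is the 1 window with a match. Of 35116 promoters of this length, 25.0% held at least 1.

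Genes that act around LIN28B were counted as a list. Of 21 tested genes of the LIN28 and let-7 pathway, 2 were higher and 1 was lower after GATA4 siRNA, where 6.41% of all genes were called, with a median change of -0.026 against 0.0020 over all genes. TRIM71, an E3 ligase and RNA-binding protein of stem cells whose transcript is a let-7 target, was -0.53 (SE 0.13, limma adjusted p = 0.015), with 5 of 6 pairs lower. It read 218.4 to 392.3 raw units (median 265.6) with NT siRNA and 206.9 to 258.0 (median 218.5) with GATA4 siRNA, and its other probe was not detected on any array. The call of TRIM71 ended on leaving out replicate 3 (-0.40, adjusted p = 0.067) or replicate 6 (-0.40, adjusted p = 0.082), and without the block (adjusted p = 0.29). MYC was 0.17 (adjusted p = 0.033) and MYCN 0.17 (adjusted p = 0.037), both transcription factors of cell growth. Neither passed without the block (adjusted p = 0.59 and 0.93). Leaving out any of 5 replicate numbers ended the call of MYC, and any of 4 that of MYCN. Each has another probe detected on all 12 arrays, at 0.10 for MYC and 0.17 for MYCN. Neither of these probes passed (limma p adjusted over all probes 0.24 and 0.31). With the mean of a gene's probes both calls ended (limma adjusted p = 0.068 and 0.073). MYCN also differed by 0.93 between the sets, higher in replicates 4 to 6. LIN28A, the paralog of LIN28B, was detected on all 12 arrays (2825 to 3789 raw units), with 0.083 after GATA4 siRNA (adjusted p = 0.31) and 0.090 between the sets.

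IGF2BP1, a fetal RNA-binding protein of the IGF2 messenger RNA, was at the edge of detection, with 135.0 to 158.1 raw units (median 142.3) in NT siRNA samples and 135.5 to 158.2 (median 148.4) in GATA4 siRNA samples. It was detected in 5 of 6 NT siRNA and 2 of 6 GATA4 siRNA samples. The raw ranges of the groups were nearly the same, and the groups also overlapped after normalisation. The change was -0.11 (SE 0.13, 95% interval -0.37 to 0.16, adjusted p = 0.70). Its paralogs were detected on all 12 arrays and did not pass either: IGF2BP2 was -0.11 (adjusted p = 0.21) and IGF2BP3 0.079 (adjusted p = 0.39). These paralogs and LIN28A were chosen after the values were seen.

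PEG10, an imprinted gene derived from a retrotransposon and active in placenta and liver tumours, was the other of the 8 genes whose sets of replicates did not overlap, at the brightest of its 3 probes. That probe read 1985, 1843 and 2152 raw units in NT siRNA replicates 1 to 3 and 1158, 1323 and 1028 in replicates 4 to 6. After GATA4 siRNA it read 1927, 1877 and 1715, then 1231, 1569 and 1595. The lowest of replicates 1 to 3 thus lay above the highest of replicates 4 to 6 in both groups, with a wider gap in NT siRNA. On the log2 scale replicates 4 to 6 were lower by -0.78 with NT siRNA (1.72-fold) and by -0.40 with GATA4 siRNA (1.32-fold). A larger difference between the sets, over both siRNAs (-0.59, SE 0.063), was seen in 6.97% of genes.

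After GATA4 siRNA PEG10 changed by 0.058 over all pairs (SE 0.063, adjusted p = 0.68), a mean over pairs that moved both ways. The pairs were -0.14, 0.0083 and -0.27 in replicates 1 to 3 and 0.18, 0.18 and 0.38 in replicates 4 to 6. Within replicates 4 to 6 alone PEG10 passed as higher (0.25, limma adjusted p = 0.026), as 1.89% of all genes did, and within replicates 1 to 3 it was at -0.13 (adjusted p = 0.43). The test of the difference itself gave 0.38 (SE 0.096, unadjusted p = 0.00079), which did not pass over all genes (adjusted p = 0.40). No gene passed that limma test at an adjusted p under 0.05, and 8.16% of genes had an unadjusted p under 0.05. The other detected PEG10 probe, ILMN_1763359, read 641.5 to 1228 raw units and gave a difference of 0.51 (unadjusted p = 0.00013, adjusted over all probes 0.26). At ILMN_1763359 the sets did not overlap with NT siRNA, but with GATA4 siRNA they did (839.4 to 1008 raw units in replicates 1 to 3 and 785.4 to 969.1 in replicates 4 to 6, and likewise after normalisation). The remaining probe, ILMN_1670019, designed to another RefSeq transcript of PEG10, was detected on 0 arrays (108.5 to 130.2 raw units). SGCE, which lies next to PEG10 in the same imprinted domain and was chosen for that after the values were seen, was at 0.0039 after GATA4 siRNA (adjusted p = 0.98) and at -0.16 between the sets.

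**Figure D3:**
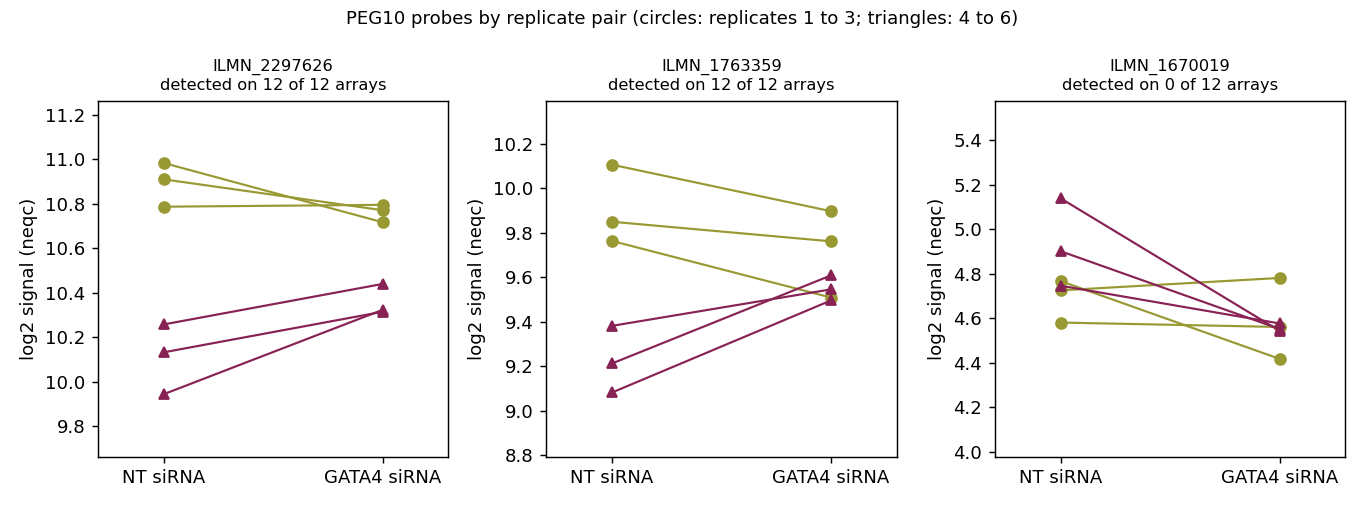
Log2 signal of the 3 PEG10 probes, with a line for each replicate pair from NT siRNA to GATA4 siRNA (circles: replicates 1 to 3; triangles: replicates 4 to 6), each panel spanning the same log2 range. At the 2 detected probes the triangles start below the circles and slope up from NT siRNA to GATA4 siRNA. The other probe was detected on 0 of 12 arrays.

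The other tested genes differed less between the sets. H19, not tested and detected on 2 arrays, had sets that did not overlap in either siRNA group (log2 signal 4.51 to 4.96 in replicates 1 to 3 and 5.12 to 5.64 in replicates 4 to 6), near background. SALL4 was 0.29 higher in replicates 4 to 6 (SE 0.059) and DUSP9 0.22 higher (SE 0.064), while AFP was at -0.15, IGF2BP1 at -0.12, PEG3 at -0.11 and GPC3 at 0.028. With arrays scaled to equal medians, AFP was at -0.060 and GPC3 at 0.16. Of the 8 tested genes, 2 had sets that did not overlap in either siRNA group, against 32.0% of all genes tested (15.0% higher and 17.0% lower in replicates 4 to 6). No p is given for these differences, because the sets were first seen in the same arrays. Some genes used as markers of other cell types also differed between the sets, in arrays of this 1 cell line. The summed raw signal of 12 stellate cell and fibroblast markers was 12176 to 14892 in replicates 1 to 3 and 8481 to 11047 in replicates 4 to 6, and 5 of the 12, COL3A1, DCN, LUM, THY1 and LRAT, were detected on 0 arrays. After GATA4 siRNA 2 of the 6 tested ones were called higher (COL1A2 and TAGLN) and 0 lower, where 2.65% and 3.77% of all genes were. The sums were 12176 to 13597 with NT siRNA and 13582 to 14892 with GATA4 siRNA in replicates 1 to 3, and 8481 to 8980 and 9300 to 11047 in replicates 4 to 6. Bright probes such as TAGLN (up to 6244.5 units) and ACTA2 (up to 5878) make up much of each sum. Of the 6 tested markers, COL1A2, PDGFRB, ACTA2, TAGLN and RGS5 were lower in replicates 4 to 6 (-0.25 to -1.09 in log2 signal) and PDGFRA was higher (0.81). Of 12 macrophage and blood markers 7 were detected on 0 arrays. The sum of the 12 was 4795 to 5112 in replicates 1 to 3 and 3266 to 4017 in replicates 4 to 6. CD3D (1183 to 2562 units) made up much of that sum. Of the tested markers, CD3D, CD68, CD163 and CD14 were lower in replicates 4 to 6 (-0.51 to -1.15 in log2 signal), and PECAM1 was at 0.014. The CD163 probe in the sum was detected on 3 arrays, and the CD163 difference is that of another probe. The sum of 8 cholangiocyte markers (20947 to 25545 over all arrays) overlapped between the sets. The part of these markers in the differences of LIN28B and PEG10 was not tested.

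**Figure D4:**
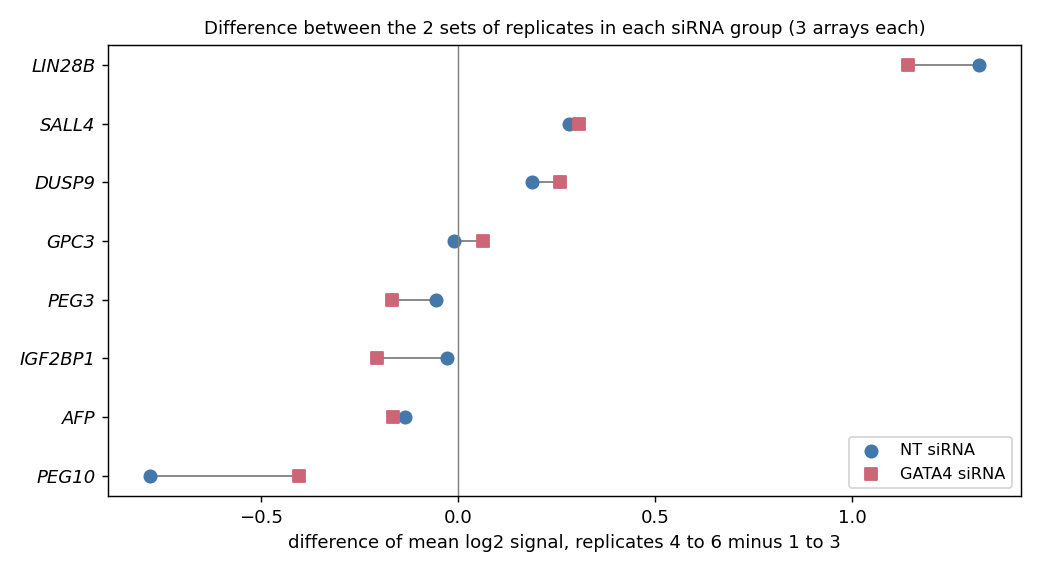
Difference of the mean log2 signal, replicates 4 to 6 minus replicates 1 to 3, for the 8 tested genes in NT siRNA samples (circles) and GATA4 siRNA samples (squares), 3 arrays in each mean. LIN28B stands at 1.32 and 1.14, PEG10 at -0.78 and -0.40, and the other 6 genes lie nearer to 0.

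Other imprinted, hepatoblast and oncofetal genes were counted in lists of their own. The pathway and family lists above also hold those of the 10 genes that belong to them. Of 19 tested imprinted genes, 0 were higher and 1 was lower, where 2.65% and 3.77% of all genes were. Their median change was -0.000074 against 0.0020 over all genes. NLRP2, an NLR family protein of the oocyte and of innate immunity, was the 1 called, at -0.27 (SE 0.050, limma adjusted p = 0.0016, and 0.047 without the block). All 6 pairs of NLRP2 were lower and the groups did not overlap after normalisation, which held for 1.68% of all genes. Of 25 tested hepatoblast and oncofetal genes, 1 was higher and 4 were lower, with a median of -0.038, beside the same 2.65% and 3.77%. TRIM71 and MYCN, given above, are also in this list. TFRC, the transferrin receptor, was -0.24 (SE 0.043, adjusted p = 0.00092), and PROM1, the stem cell surface protein CD133, was -0.19 (SE 0.043, adjusted p = 0.0078), both lower in 6 of 6 pairs. The remaining call, CDH17, an intestinal and liver cadherin named here after its value was seen, was -0.16 (SE 0.039, adjusted p = 0.013, 0.34 without the block). Of TFRC and PROM1 neither passed without the block (adjusted p = 0.096 and 0.89), and PROM1 also differed by -0.73 between the sets. Of the albumin family, ALB was -0.23 (adjusted p = 0.0058, 0.21 without the block) beside the -0.014 of its relative AFP. ALB read 2653 to 3984 raw units and AFP 15010 to 18287, where a change may be understated, so the 2 changes may not compare directly. Neither reference gene was called, with ACTB at -0.055 (adjusted p = 0.47) and GAPDH at -0.0065 (adjusted p = 0.96).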

How the data were processed

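RNA of 12 HUH6 samples was read on Illumina HumanHT-12 v4 arrays, per the labels. Each probe has a deposited linear signal intensity with no background subtracted (lowest value 82.2) and a deposited detection p-value of its own. GenomeStudio is named in the submitters' processing notes without a version. The authors' deposited log2 values lie within 0.0141 of quantile-normalised log2 signals, and no source used here describes their method.

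Of the probes, 30112 carry 1 symbol in the platform annotation (30073 updated through RefSeq gene IDs), 8 several and 17986 none. Signals were corrected and normalised with neqc (offset 16, limma 3.58.1, R 4.3.3). Probes detected on at least 6 arrays were tested, the brightest for each of 10196 genes. The test was limma's lmFit and eBayes with a variance trend, the replicate number as block. It was two-sided, and p-values were adjusted by Benjamini-Hochberg across the 10196 genes, with calls at 0.05. Deviations of same-number samples from the group means correlated at 0.548 to 0.604 across genes, and at -0.0604 to 0.0119 once the set means were also removed.

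The members, lists and tests were chosen with earlier results of these data known. By rule the text names the 10 genes, GATA4, ACTB, GAPDH and, from each list, up to 3 called genes a direction, or the gene of lowest p. On simulated data for GATA4 siRNA against NT siRNA (10196 genes), the test found 58.2% of changes of 0.25 in log2, 89.6% at 0.5 and 98.5% at 1, with 13 false calls of 177. The noise was normal and independent, with each gene's spread from the same block fit. These rates hold under that model and may differ on the real arrays. Alternatives concerned the block, normalisation, offset, filter, probe rule, variance model, array weights and samples.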

Additional observations from a re-analysis of the deposited data

Results flagged for a closer look

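The log2 signals of 19 genes were searched in both siRNA groups, 38 groups of 6 samples in all. A sample was flagged where its gap to its nearest neighbour took up a large share of the range. The cut was one that chance passes in about 5% of groups, so smaller gaps were not flagged. Chance gives about 1.9 such groups. There was 1: GAPDH in NT siRNA replicate 4 had a log2 signal of 13.62, where the other 5 lay between 13.46 and 13.51. Its gap was 0.68 of the range. None of the 8 tested oncofetal and imprinted genes had a sample past this cut.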

How the results depend on the processing

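Without the replicate block 0 of the 8 genes were lower (3 with it), and over all genes 52 were lower and 20 higher (384 and 270 with it). Within replicates 1 to 3 alone, with the replicate block, 0 of the 8 were lower, and 85 and 36 genes over all. Within replicates 4 to 6 alone 1 of the 8 was higher (PEG10), and 193 genes over all. Without a mean-variance trend 1 of the 8 was lower (DUSP9), and 167 and 104 over all. Equal medians in place of quantiles gave 231 and 131 over all, and no filter gave 245 and 153. Leaving out a replicate number from both groups left 2 to 3 of the 8 lower and 0 higher, with 270 to 348 and 175 to 239 over all. PEG3 passed in 18 of 21 alternatives (-0.28 to -0.41), DUSP9 in 19 (-0.25 to -0.35) and SALL4 in 10 (-0.16 to -0.26), and none of these 3 changed sign. Some changes near 0 in the main fit changed sign in an alternative, and none passed the threshold where the sign had changed. AFP was 0.0018 within replicates 1 to 3 and from -0.044 to 0.014 on leaving out a replicate (0.014 without replicate 4). PEG10 was -0.13 within replicates 1 to 3 (limma adjusted p = 0.43) and from -0.0065 (without replicate 6) to 0.12 on leaving out a replicate. It passed in 1 of 21 alternatives, within replicates 4 to 6 (0.25, limma adjusted p = 0.026). GAPDH was 0.0030 within replicates 1 to 3, 0.010 as the mean of its probes, and 0.012, 0.018 and 0.0063 without replicates 2, 4 and 5 (lowest -0.038, without replicate 6). The difference of the AFP change between the sets was 0.070 with equal medians (-0.032 otherwise), and with equal medians 1 gene, none of the 8, passed that test against 0. The cause of these shifts was not tested. IGF2BP1 could not be fitted where detection on all 12 arrays was required. The block by chip was not run, since the files name no chip. Signals of H19, DLK1 and IGF2BP1 were at or near background, which limits what can be said of them.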
